A study of Mus musculus with 12 samples.

Results

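The 288 genes described here are the mouse genes named Zfp followed by a number, a name given to zinc finger proteins without a more specific symbol, that were expressed in cultured bone marrow dendritic cells. They were taken from the 362 genes with such names among the 27179 genes of the count table. They were selected on their measured level in cells: a gene was kept when it reached 1 CPM (counts-per-million, its count scaled to the library's total) in at least 3 of the 6 cell libraries, and Zfp36, which carries another type of finger, was left out. Of the 288 genes, 269 passed in all 6 cell libraries and 19 in 3 to 5 of them, and the other 74 fell below the floor. Levels in cells are therefore given as a description. Just inside the floor, the third-highest cell value was 1.02 CPM for Zfp9 and 1.09 CPM for Zfp783, and just outside it was 0.948 CPM for Zfp112 and 0.923 CPM for Zfp365.

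RNA was sequenced from dendritic cells grown out of the bone marrow of C57Bl/6 mice and from the exosomes, small secreted vesicles, that the same cultures released. The marrow was kept for 7 days in DMEM to which 10% FCS and, as the source of GM-CSF, 10% X-63 supernatant had been added. Exosomes were collected by ultrafiltration and differential ultracentrifugation. The wild-type (WT) cultures came from mice 33 (female), 42 (female) and 46 (male), and the cultures labelled DKO, for loss of both Sidt1 and Sidt2, came from 3 males, mice 151, 152 and 153. Each mouse gave 1 cell library and 1 exosome library, 12 in all and 3 in each of the 4 groups. Cell RNA and exosome RNA were extracted with different reagents (Tri-Reagent against Trizol LS with a Qiagen column), so compartment and extraction cannot be told apart. The genotypes are also unbalanced for sex.

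Sidt2 had 3661 to 7775 counts in WT cells and 11 to 21 in cells labelled DKO. Sidt1, however, had 0 to 3 counts in WT cells and 574 to 1722 in cells labelled DKO, against the label, which is therefore written as "labelled DKO" throughout. The libraries held 7215083 to 32273898 counts. In bulk libraries, fewer cells or vesicles that carry a transcript and less of it in each cannot be told apart. The 14 dendritic cell markers summed to 11093 to 14072 CPM in WT cells and to 4273 to 4856 CPM in WT exosomes, and the 12 macrophage markers to 27131 to 31339 and 34579 to 38578 CPM. The latter sum is mostly Lyz2 (means of 26743 and 35522 CPM), and 7 of the 12 macrophage markers were called lower in WT exosomes and 2 higher. None of these 26 genes was at 0 in all 3 libraries of a group. Markers of B and plasma cells summed to 97.8 to 192 CPM in WT cells and 19.4 to 71.1 CPM in WT exosomes, and those of T and NK cells to 3.14 to 4.8 and 1.85 to 13.1 CPM. Apart from the floor and shares of all counts, all levels are CPM scaled by the trimmed mean of M values (TMM). This scaling sets libraries against each other by the bulk of their genes.

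A classical C2H2 zinc finger is a short fold in which a pair of cysteines and a pair of histidines hold a zinc ion, and arrays of such fingers read DNA, each finger contacting a few neighbouring bases. Many of these proteins begin with a KRAB domain, which binds the co-repressor TRIM28 (KAP1) and through it the methyltransferase SETDB1 and heterochromatin proteins, a pathway known for silencing endogenous retroviruses and keeping genomic imprints. KRAB zinc finger genes lie in tandem clusters and arise by local duplication, so that neighbours can be nearly identical. Other members are promoter-binding activators, and some bind RNA or ribosomes instead of DNA.

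The arrays can be seen in the genes themselves. One finger and the linker after it is printed for 4 members called lower and 3 called higher in exosomes than in cells. Zfp523 rose least of these 3. The fingers are examples that show the shared frame, and their base composition describes only the stretches printed. Capitals mark the codons of the cysteines and histidines. The sequences are 5′ to 3′ on the coding strand, taken from GENCODE M21 transcripts on GRCm38 (mm10).
Zfp960: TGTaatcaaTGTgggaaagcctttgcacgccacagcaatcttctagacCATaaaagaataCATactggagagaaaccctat
Zfp97: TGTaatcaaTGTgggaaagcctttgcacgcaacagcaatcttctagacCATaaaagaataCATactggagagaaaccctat
Zfp229: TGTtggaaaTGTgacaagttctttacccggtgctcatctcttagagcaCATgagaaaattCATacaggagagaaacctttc
Zfp995: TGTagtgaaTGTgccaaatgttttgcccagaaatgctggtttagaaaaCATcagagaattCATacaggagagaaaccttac
Zfp866: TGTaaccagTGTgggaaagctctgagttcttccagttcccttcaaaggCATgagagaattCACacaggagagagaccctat
Zfp865: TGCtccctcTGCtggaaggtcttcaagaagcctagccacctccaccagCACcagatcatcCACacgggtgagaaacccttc
Zfp523: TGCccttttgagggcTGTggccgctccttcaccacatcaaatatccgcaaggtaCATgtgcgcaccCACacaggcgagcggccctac

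The finger of Zfp960 lies at chr17:17087503-17087583 and that of Zfp97 at chr17:17144718-17144798, both on the + strand and within coding exons. These stretches differ by 1 base, C31A (Zfp960's base first, counted from 1 at the first base printed), and the coding sequences were identical at 1608 of 1638 bases (98.2%). Reads from this pair may have been split or lost in counting, so their separate values are uncertain. The 4 fingers from genes lower in exosomes had 38.3% to 40.7% G and C. Those of Zfp866 (chr8:69766399-69766479, − strand), Zfp865 (chr7:5030071-5030151, + strand) and Zfp523 (chr17:28201278-28201364, + strand) had 46.9%, 56.8% and 59.8%.

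The start of a KRAB box is shown for Zfp229 (chr17:21742502-21742573, + strand), where it lies within 1 exon. Capitals mark the codons of the stretch by which the box was recognised.
Zfp229: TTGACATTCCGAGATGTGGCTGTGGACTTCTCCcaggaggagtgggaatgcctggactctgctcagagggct

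A coding sequence was matched for 285 of the 288 genes. A search of the translations for the finger pattern (C, 2 to 4 residues, C, 12 residues, H, 3 to 5 residues, H) found a median of 11 fingers per protein and at most 36, in Zfp142. No finger of this pattern was found in Zfp839, Zfp503, Zfp703 and Zfp330. A KRAB-like pattern was present in 163 proteins, with a median of 12 fingers, and absent from 122, with a median of 7. A match of this pattern is a description and was not checked against domain annotation.

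In cells these were low-abundance transcripts. The median member had a mean of 8.59 CPM over the 6 cell libraries, against 23.5 CPM for the 12083 genes that passed the same floor. Allowing for gene length, the most abundant were Zfp207 at 39.0 RPKM (CPM per kilobase of gene length), which encodes a spindle assembly factor, and the KRAB gene Zfp984 at 24.6 RPKM. Next came Zfp622 at 22.5 RPKM, a factor of large ribosomal subunit maturation, then Zfp706 at 21.8, Zfp217 at 20.5, Zfp524 at 18.8, Zfp106 at 18.5 and Zfp277 at 17.2 RPKM. The median member was at 2.41 RPKM. All members together took 0.422% to 0.476% of a cell library's counts.

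Zinc finger transcripts together took a smaller share of all counts in exosomes than in cells, and KRAB genes made up most of the members called lower. These shares are of raw counts, without TMM scaling. Scaled by total counts alone, the median log2 fold change (exosomes minus cells) of all genes was −0.39 in WT. In libraries labelled DKO it was −0.14. The members' medians were then −0.83 and −0.55, so on this scale the typical gene also fell, by less. The members' share of all counts was 0.256% to 0.373% in the 6 exosome libraries, below every cell library. For members with the KRAB-like pattern the share was 0.163% to 0.203% in cells and 0.0789% to 0.122% in exosomes, with no overlap. For members without it the share was 0.250% to 0.287% in cells and 0.177% to 0.265% in exosomes, and the ranges met. Each gene was tested with edgeR's quasi-likelihood test over all genes of the comparison, on counts with TMM scaling, and called at an adjusted p under 0.05.

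In WT libraries 77 of 287 members tested were called lower in exosomes (26.8%), beside 19.6% of all genes tested. Only 16 were called higher (5.57%), beside 18.7% of all genes tested. The members' median log2 fold change was −0.46 and that of all genes −0.02. In libraries labelled DKO, 86 of 287 were called lower (30.0%) and 26 higher (9.06%), beside 23.7% of all genes in each direction, with a median of −0.43 and −0.01 for all genes. Among members above 5 CPM in every cell library, 61 of 182 were lower and 15 higher in WT, beside 22.9% and 21.6% of all genes above that level. There, 71 were lower and 19 higher in libraries labelled DKO, beside 27.0% and 25.8%. Exosome values lay below all cell values, without overlap, for 131 members in WT (30.6% of all genes) and above them for 20 (24.8% of all genes). In libraries labelled DKO this held for 115 members below (29.7% of all genes) and 39 above (28.7% of all genes). The counts in WT rested on few libraries, as 1 left out changed them by more than 1.5 times: 49 lower and 10 higher without the cells of mouse 33, 25 and 5 without those of mouse 42, 25 and 3 without those of mouse 46, and 45 and 4 when mouse 42's exosomes were left out. Leaving out the exosomes of mouse 33, where 23 members had 0 counts, gave 92 lower and 10 higher, beside 21.8% and 20.1% of all genes. Leaving out those of mouse 46 gave 81 and 31, beside 21.9% and 19.9%. With mouse as a block the WT counts were 57 lower and 10 higher. Scaled by total counts alone, 120 members were lower and 4 higher in WT, beside 32.2% and 8.68% of all genes. This scaling moved the median of all genes from −0.02 to −0.39.

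The split by KRAB pattern was as follows. Of 162 tested members with it, 60 were lower and 3 higher in WT exosomes (median log2 fold change −0.83), and 70 lower and 3 higher in exosomes labelled DKO (median −0.72). Of 122 members without it, 17 were lower and 13 higher in WT (median 0.03), and 16 lower and 23 higher in libraries labelled DKO (median 0.06). With 1 WT library left out at a time, 19 to 72 KRAB members and 5 to 20 of the others were lower. These were 11.7% to 44.2% and 4.10% to 16.4% of those tested, beside 9.88% to 21.9% of all genes. The 39 genes that passed the floor and have both patterns but another kind of name had 11 lower and 1 higher in WT (median −0.51), and 13 lower and 1 higher in libraries labelled DKO (median −0.57). Genes with another kind of name, 3 or more fingers and no KRAB-like pattern had 31 lower and 14 higher of 129 in WT (median −0.29) and 28 lower and 20 higher of 128 in libraries labelled DKO (median −0.24), lower medians than those of members without the pattern. Beside these values, 5 nuclear-retained RNAs, with Malat1 among them, summed to 321 to 762 CPM in WT cells and 43.7 to 81.4 CPM in WT exosomes. Their part in the fall of KRAB transcripts was not tested.

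**Figure D1:**
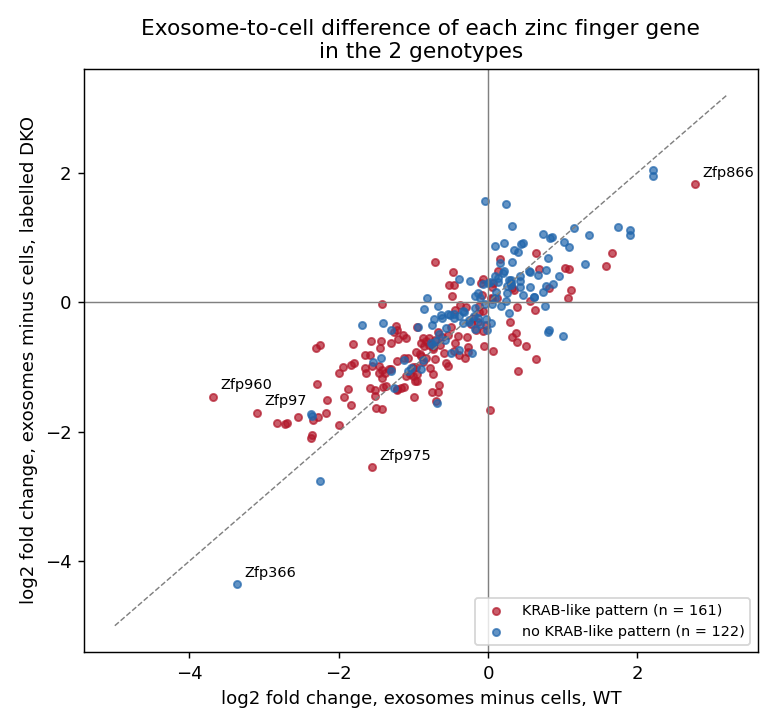
Each point is 1 zinc finger gene, with its log2 fold change (exosomes minus cells) in WT on the horizontal axis and in libraries labelled DKO on the vertical axis; red points have the KRAB-like pattern and blue points do not, and the dashed line marks equal values. Most red points lie below 0 on both axes, with Zfp960 farthest left and Zfp366 lowest, and the rank correlation over 286 genes was 0.82.

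The 2 genotypes share no library in these comparisons, and many calls were shared. Of the members lower in exosomes, 64 were called in both, 83.1% of the WT calls and 74.4% of the calls in libraries labelled DKO, and 51 of them had the KRAB-like pattern. For all genes above the floor these shares were 83.1% and 70.4%. Of the members higher in exosomes, 13 were called in both, 81.3% and 50% of the calls against 81.8% and 67.6% for all genes above the floor, and no member was called in opposite directions. Across the 286 members tested in both, the fold changes had a Spearman correlation of 0.82, given as a description because genes are not independent.

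A mean log2 CPM above 1 in the fit, taken over cells and exosomes together, could be reached through the cells alone. Among called members above it and without overlap, Zfp960 had the lowest fold change in WT exosomes. This KRAB gene was at 6.29, 7.01 and 6.45 CPM in the WT cells of mice 33, 42 and 46 and at 0, 0.483 and 0.926 CPM in their exosomes, from 0, 10 and 9 counts. Cells and exosomes did not overlap, and the log2 fold change was −3.69 ± 0.64 (SE, n = 3 and 3, edgeR adjusted p = 0.00491). In libraries labelled DKO it was at 4.32, 6.71 and 6.11 CPM in cells and 1.98, 2.04 and 2.26 CPM in exosomes, again without overlap, a change of −1.46 ± 0.32 (edgeR adjusted p = 0.00341). The near-copy Zfp97 moved from 8.75, 9.04 and 7.85 CPM in WT cells to 0.292, 1.16 and 1.34 CPM in WT exosomes, and from 7.58, 8.18 and 9.95 to 3.19, 2.11 and 2.53 CPM in libraries labelled DKO. Its fold changes were −3.09 ± 0.44 and −1.71 ± 0.29 (edgeR adjusted p = 0.00263 and 0.000637), with no overlap in either genotype. The WT exosome levels of both genes lay below those labelled DKO. The test of that difference, the interaction of compartment and genotype, gave 2.24 ± 0.67 for Zfp960 and 1.39 ± 0.50 for Zfp97 (edgeR adjusted p = 0.715 for each), so a difference between genotypes was not shown.

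Zfp366 is the mouse gene of DC-SCRIPT, a C2H2 co-regulator of nuclear receptors known for its expression in dendritic cells, and has no KRAB-like pattern. It stood at 6.43, 4.8 and 5.84 CPM in WT cells but only 0, 0.290 and 1.34 CPM in WT exosomes, where it had 0, 6 and 13 counts. In libraries labelled DKO it fell from 5.73, 3.19 and 2.49 CPM to 0.0708, 0 and 0.665 CPM, from 1, 0 and 5 counts. Every exosome value was below every cell value in both genotypes, and the log2 fold changes were −3.37 ± 0.78 (edgeR adjusted p = 0.0127) and −4.35 ± 0.87 (edgeR adjusted p = 0.00178). With so few counts the size of these folds is loosely set, and the WT call was lost without the cells of mouse 33 or 46 or the exosomes of mouse 42. Dendritic cell markers moved with it: 12 of 14 were called lower in WT exosomes and 13 of 14 in exosomes labelled DKO, with sums of 8426 to 11225 CPM in cells labelled DKO and 2766 to 3089 CPM in their exosomes. Their part in the level of Zfp366 was not tested.

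Zfp638 encodes a large nuclear protein linked to splicing and to the silencing of unintegrated retroviral DNA. It was at 46.8, 70.2 and 65.3 CPM in WT cells and 8.16, 12.5 and 14.1 CPM in WT exosomes. Where labelled DKO, it was at 62.2, 59.3 and 80.8 CPM in cells and 24.4, 12.5 and 24.3 CPM in exosomes. No exosome value reached a cell value, and the log2 fold changes were −2.37 ± 0.26 and −1.73 ± 0.24 (edgeR adjusted p = 0.00113 and 0.000189). The KRAB gene Zfp995 fell by 2.37 ± 0.31 and 2.06 ± 0.40 on the log2 scale (edgeR adjusted p = 0.00207 and 0.00161). The calls of Zfp960, Zfp97, Zfp638 and Zfp995 were kept under each of 13 alternative settings in both genotypes.

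Other KRAB members lowest in exosomes were Zfp229 with log2 fold changes of −2.55 ± 0.71 in WT and −1.77 ± 0.38 in libraries labelled DKO, and Zfp975 with −1.55 ± 0.47 and −2.54 ± 0.55. Zfp808 changed by −2.37 ± 0.61 and −2.10 ± 0.58, Zfp85 by −2.0 ± 0.63 and −1.90 ± 0.49, and Zfp937 by −2.82 ± 0.81 and −1.87 ± 0.46. In the WT exosomes of mice 33, 42 and 46, Zfp229 had 0, 13 and 10 counts and Zfp937 0, 5 and 7, so these folds are loosely set. All 5 were called in both genotypes, with edgeR adjusted p from 0.00292 to 0.0384 and without overlap, but each lost its WT call without the cells of mouse 42 or without those of mouse 46. The abundant KRAB gene Zfp984 was at 57.5, 76.1 and 62.6 CPM in WT cells and 15.5, 26.0 and 20.0 CPM in WT exosomes, a change of −1.65 ± 0.23 (edgeR adjusted p = 0.00249), and it fell by 1.01 ± 0.15 in libraries labelled DKO (edgeR adjusted p = 0.000341).

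**Figure D2:**
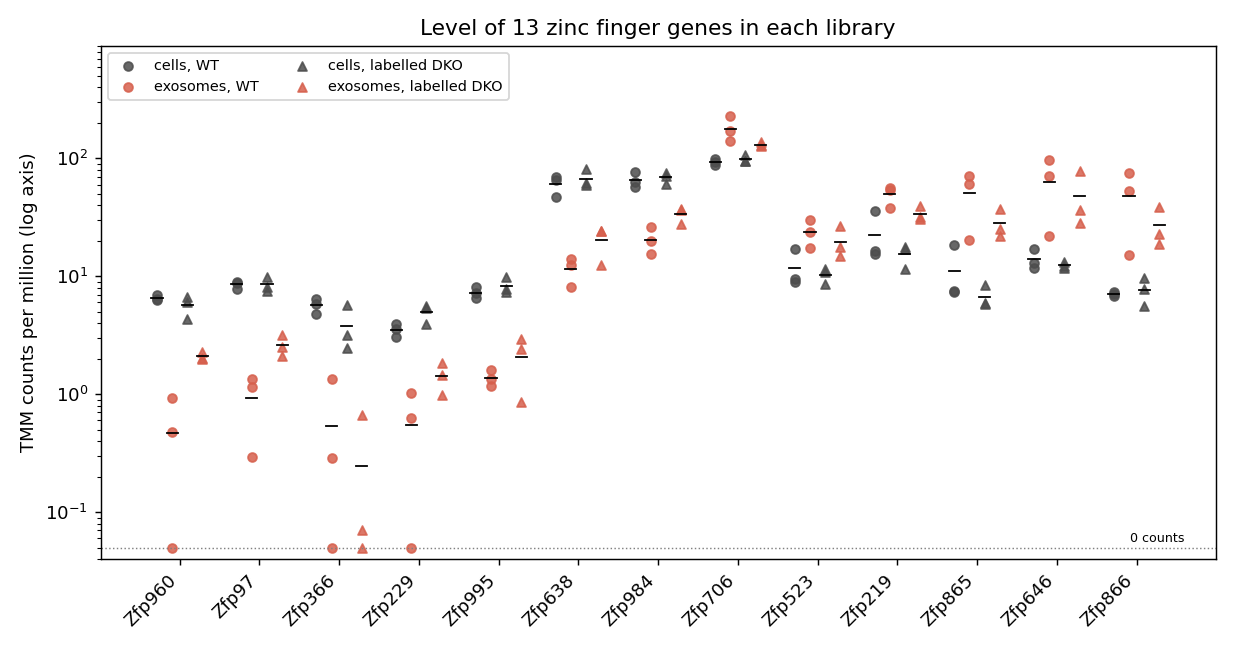
Level of 13 zinc finger genes as TMM-scaled CPM on a log axis, 1 point per library (circles WT, triangles labelled DKO; grey cells, red exosomes), with bars at the group means; libraries with 0 counts are drawn on the dotted line. Exosome points lie below the cell points for the 7 genes on the left and above them for the 6 on the right, the closest values being 17.1 and 17.5 CPM for Zfp523 in WT.

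A smaller number of members were enriched in exosomes, and in WT 13 of these 16 had no KRAB-like pattern. Of the other 3, Zfp866 had the largest change. This KRAB gene lies on chromosome 8 and was at 7.41, 6.82 and 7.09 CPM in WT cells and 75.5, 53.3 and 15.2 CPM in WT exosomes, and at 5.64, 7.76 and 9.74 against 39.1, 23.1 and 18.9 CPM in libraries labelled DKO. The groups did not overlap, exosomes of mouse 46 were the lowest of the WT exosomes, and the log2 fold changes were 2.77 ± 0.51 and 1.82 ± 0.29 (edgeR adjusted p = 0.00605 and 0.000454). These calls were kept under all 13 alternatives in both genotypes.

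Zfp646, a protein with 27 fingers by the pattern, was at 17.1, 12.9 and 11.8 CPM in WT cells and 71.6, 97.6 and 21.9 CPM in WT exosomes. Where labelled DKO, it was at 12.3, 11.8 and 13.3 CPM in cells and 78.5, 28.1 and 36.3 CPM in exosomes. Exosomes were higher without overlap, with changes of 2.21 ± 0.49 and 1.95 ± 0.32 (edgeR adjusted p = 0.011 and 0.000606). Zfp865 was at 18.3, 7.56 and 7.37 CPM in WT cells, 71.0, 60.8 and 20.4 CPM in WT exosomes, and 5.91, 8.42 and 5.80 against 37.3, 22 and 25 CPM in libraries labelled DKO. It rose by 2.21 ± 0.53 and 2.04 ± 0.25 (edgeR adjusted p = 0.0148 and 7.86e-05), again without overlap.

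Zfp219 rose by 1.15 ± 0.34 in WT and 1.14 ± 0.19 in libraries labelled DKO (edgeR adjusted p = 0.0322 and 0.000686), and Zfp523, a relative of the activator gene Zfp143, by 1.01 ± 0.31 and 0.92 ± 0.24 (edgeR adjusted p = 0.0359 and 0.00855). The calls of Zfp865, Zfp219 and Zfp523 in WT were lost without the cells of mouse 42 or 46 or the exosomes of mouse 33 or 42, and that of Zfp646 without the cells of mouse 46. Zfp706, which encodes a small protein with 1 finger, rose from 88.3, 93.7 and 98.3 CPM to 228, 169 and 140 CPM in WT (0.95 ± 0.20, edgeR adjusted p = 0.0089), and by 0.41 ± 0.11 in libraries labelled DKO (edgeR adjusted p = 0.0106), the latter call being lost without the cells of mouse 152. Among libraries labelled DKO alone, Zfp580 (1.56 ± 0.39), Zfp503 (1.52 ± 0.42) and Zfp771 (1.17 ± 0.26) were also called (edgeR adjusted p = 0.00704, 0.0117 and 0.00373), that of Zfp503 not without the cells of mouse 153. In WT none of them was called and their values overlapped, with the cells of mouse 33 high at 3.86, 4.92 and 16.7 CPM against 1.66 and 1.70, 1.48 and 1.23, and 5.26 and 5.03 CPM in the other cells.

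Members that bind promoters or enhancers were measured in 15 cases, and 2 rose (13.3%) and 3 fell (20%) in WT exosomes, near the shares over all genes tested (18.7% and 19.6%). Zfp263 fell by 1.26 ± 0.22 in WT and by 1.33 ± 0.13 in libraries labelled DKO (edgeR adjusted p = 0.00482 and 2.47e-05). Zfp148, which binds GC-rich promoter elements, fell by 0.76 ± 0.23 and 0.63 ± 0.15 (edgeR adjusted p = 0.0317 and 0.00573). Zfp143, an activator bound at many promoters, changed by −0.94 ± 0.32 (edgeR adjusted p = 0.0484) and −0.39 ± 0.18 (edgeR adjusted p = 0.0882), so only the WT value was called. The 2 that rose in WT were Zfp219 and Zfp367 (0.77 ± 0.18, edgeR adjusted p = 0.0126). In libraries labelled DKO 1 rose, Zfp219, and 3 fell, Zfp148, Zfp263 and Zfp217, beside 23.7% of all genes in each direction. The last, a partner of the CoREST repressor complex, was at 134, 108 and 110 CPM in cells and 92.4, 54.5 and 56.9 CPM in exosomes (−0.78 ± 0.19, edgeR adjusted p = 0.0065), and in WT its exosome values of 143, 130 and 38.7 CPM overlapped those of cells. Leaving out the cells of mouse 42 or of mouse 46 ended the WT calls of Zfp143 and Zfp148, and leaving out those of mouse 46 that of Zfp367, while Zfp263 kept its call in all 13 alternatives.

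Members that act on RNA, splicing, ribosomes or translation numbered 11. In WT exosomes 5 fell (Zfp207, Zfp326, Zfp638, Zfp830 and Zfp318) and 1 rose (Zfp593, a factor of ribosome biogenesis, by 0.78 ± 0.24, edgeR adjusted p = 0.0378), beside 19.6% lower and 18.7% higher over all genes. In exosomes labelled DKO 4 fell (Zfp207, Zfp638, Zfp318 and Zfp871) and none rose, beside 23.7% of all genes in each direction. Zfp207 went from 132, 156 and 152 CPM in WT cells to 82.7, 100.4 and 109 CPM in exosomes, and from 139, 150 and 142 to 89.0, 94.0 and 104 CPM in libraries labelled DKO. These groups did not overlap, and the changes were −0.58 ± 0.16 and −0.59 ± 0.11 (edgeR adjusted p = 0.0242 and 0.00158). The WT calls of Zfp207, Zfp326, Zfp830, Zfp318 and Zfp593 were lost when the cells of mouse 42 or of mouse 46 were left out, and that of Zfp638 was kept. Zfp318 fell by 1.03 ± 0.24 and 1.01 ± 0.17 (edgeR adjusted p = 0.0144 and 0.000711). For Zfp106, an RNA-binding protein, and Zfp598, the ubiquitin ligase of collided ribosomes, no difference was called. The 3 ubiquitin or SUMO ligases Zfp91, Zfp451 and Zfp598 had no call in either genotype.

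Of 6 members with known roles in silencing or imprinting, Zfp568, the repressor of a placental Igf2 transcript, was higher in exosomes in both genotypes (1.67 ± 0.50 and 0.76 ± 0.19, edgeR adjusted p = 0.0326 and 0.00736). In WT its cells were at 14.5, 17.2 and 19.8 CPM and its exosomes at 85.7, 58.6 and 17.2 CPM, so that the exosomes of mouse 46 lay within the cell range, and 8 of 13 alternatives lost the call. Zfp932 fell in WT (−1.21 ± 0.38, edgeR adjusted p = 0.0393), a call lost without the cells of any 1 WT mouse or the exosomes of mouse 42. Zfp809, which recognises the primer binding site of murine leukaemia virus, fell in libraries labelled DKO (−1.0 ± 0.29, edgeR adjusted p = 0.0142) and had the same fold in WT with a wider error (−1.01 ± 0.43, edgeR adjusted p = 0.10). Its call was lost without the cells of mouse 151 or of mouse 152. Its span overlaps that of Zfp599, and reads from a shared stretch cannot be separated here. Zfp445, which maintains imprints, Zfp644 and Zfp819 were not called.

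The partners of KRAB proteins were read from a separate list. Of 17 co-repressor genes, 4 fell in WT exosomes (23.5%, beside 19.6% of all genes) and 7 in exosomes labelled DKO (41.2%, beside 23.7%). Chd4, the remodelling ATPase of the NuRD complex, fell by 1.67 ± 0.31 and 0.97 ± 0.16 (edgeR adjusted p = 0.00641 and 0.00048), and Setdb1 by 0.95 ± 0.23 and 0.69 ± 0.13 (edgeR adjusted p = 0.0163 and 0.00132). The WT call of Chd4 was kept in all 13 alternatives, and that of Setdb1 was lost without the cells of mouse 42 or 46 or the exosomes of mouse 42. Trim28, at 134, 101 and 106 CPM in WT cells and 159, 138 and 103 CPM in WT exosomes, was not called. Of the 4 HUSH silencing genes, 2 fell in WT and 4 in libraries labelled DKO, with Mphosph8 at −1.59 ± 0.26 and −0.92 ± 0.22 (edgeR adjusted p = 0.00395 and 0.00598). Among other zinc finger families in WT, 8 of 36 Zbtb genes were lower and 7 higher, 3 of 18 Zscan and Zkscan genes lower and 0 higher, and 7 of 19 Klf and Sp genes lower and 2 higher. The 0 here is from edgeR, and the 3 of the 18 at an unadjusted p under 0.05 were the 3 called lower. Of 30 other listed C2H2 factors, 9 were lower (30%) and 2 higher (6.67%) in WT, beside 26.8% and 5.57% of members. In libraries labelled DKO 6 of 29 of these factors were lower and 5 higher. Over all genes tested in WT, 19.6% were lower and 18.7% higher, near the Zbtb shares of 22.2% and 19.4%.

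Base composition of the transcripts went with the direction of change. KRAB members had a median transcript GC content of 41.3%, the others 51.9%, and all genes above the floor 50.4%. Members were put into 4 GC groups of like size. In that with the lowest GC (34.6% to 40.1%), 42 of 72 were lower and 0 higher in WT exosomes, with a median log2 fold change of −1.30. In the next ones the counts were 23 lower and 3 higher of 70 (median −0.72), then 12 lower and 7 higher of 71 (median −0.25). In the highest (51.9% to 68.7%), 0 were lower and 6 higher of 71, with a median of 0.20. Libraries labelled DKO gave 48 lower and 0 higher, 25 and 2, 12 and 6, and 1 and 18, with medians of −0.99, −0.68, −0.24 and 0.29.

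Genes other than members followed the same order less steeply. In the same GC ranges their medians in WT were −0.56, −0.38, −0.10 and 0.20, and 38.1%, 32.3%, 22.5% and 14% of them were lower and 4.3%, 8.0%, 16.8% and 26.9% higher. In the highest GC group, members called higher thus made up 8.5%, a smaller share than among other genes. For libraries labelled DKO, 48.8%, 39.5%, 26.2% and 15.6% of other genes were lower and 5.0%, 8.2%, 18.9% and 35.7% higher. Across members the Spearman correlation of GC with fold change was 0.59 in WT and 0.63 in libraries labelled DKO, and across all genes above the floor 0.28 and 0.36. Gene length had a correlation of 0.08 and 0.02 across members and −0.38 and −0.27 across all genes. Within the lowest GC group nearly all members were KRAB genes (64 of 72 tested), 39 of which were lower in WT, as were 3 of the 8 others. Their WT medians were alike, −1.31 for KRAB members and −1.30 for the others. Within the next group KRAB members had 18 lower and 0 higher of 52 (median −0.81) and the others 5 lower and 3 higher of 18 (median −0.09). Within the third GC group KRAB members had 3 lower and 3 higher of 36 (median −0.44) and the others 9 lower and 4 higher of 35 (median −0.18). In the highest GC group the WT medians were −0.02 for 10 KRAB members and 0.24 for 61 others. KRAB pattern and low GC content largely coincide among members, and their separate parts were not tested.

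**Figure D3:**
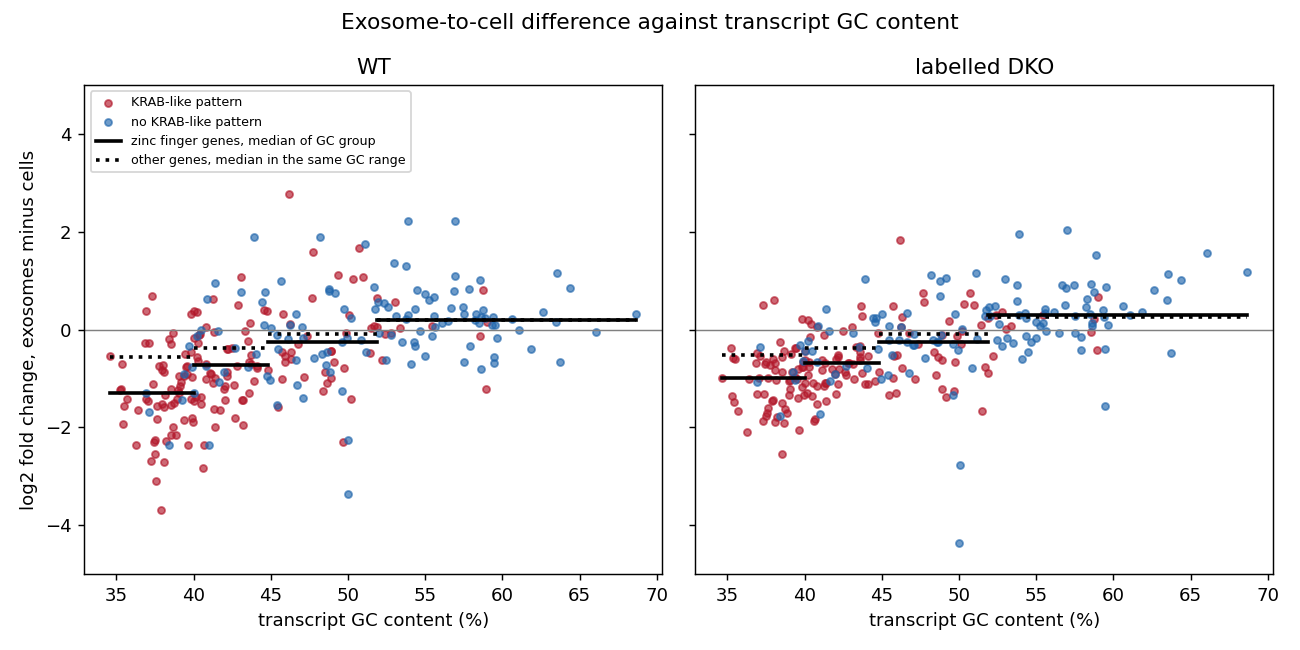
Transcript GC content (%) of each zinc finger gene against its log2 fold change, exosomes minus cells, in WT (left) and in libraries labelled DKO (right); red points have the KRAB-like pattern, solid lines are medians of the 4 GC groups and dotted lines are medians of other genes in the same GC ranges. The solid lines climb from −1.30 to 0.20 on the left and from −0.99 to 0.29 on the right, and in the 3 lower groups they lie below the dotted ones. In the highest group both are at 0.20 on the left, and the solid line is above the dotted one (0.25) on the right.

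Single libraries showed this gradient too, including 1 of the cell libraries. Against the mean of the 6 cell libraries, members of the lowest GC group had a median log2 ratio of −1.71, −1.27 and −1.19 in the exosomes of mice 33, 42 and 46 and of −0.92, −0.95 and −0.74 in those of mice 151, 152 and 153. All 6 were below the cell libraries, which ranged from −0.29 to 0.25. In the highest group the exosome medians were 0.40, 0.41, −0.03, 0.34, 0.11 and 0.14. The cells of mouse 33 had −0.29 in the lowest and 0.40 in the highest group, the direction of exosomes at a smaller size, and the cells of mouse 153 had 0.25 and −0.23, the opposite direction. Without the cells of mouse 33 the correlation of GC with the WT fold change was 0.65 across members.

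**Figure D4:**
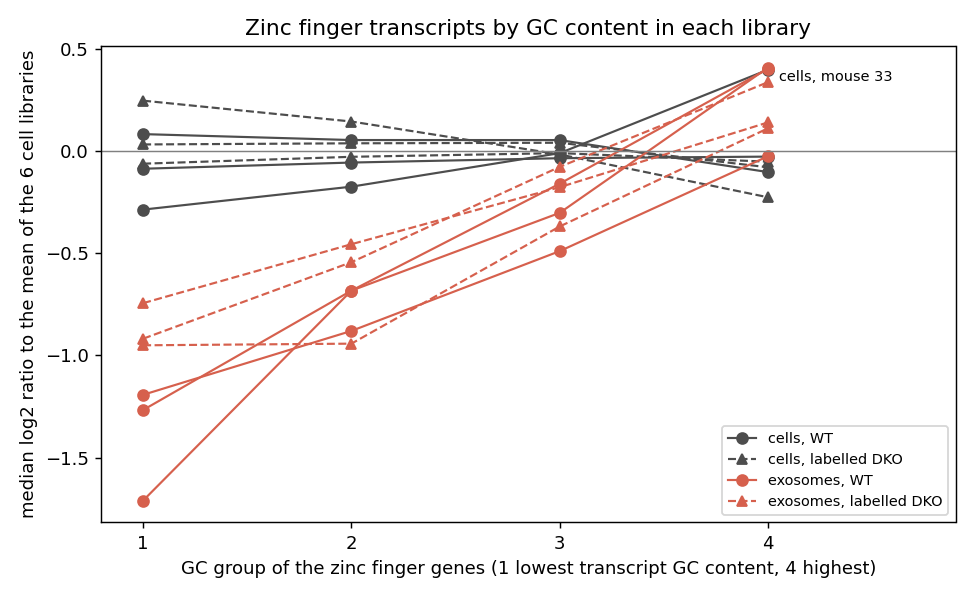
Median log2 ratio of zinc finger genes to their mean in the 6 cell libraries (with 0.1 CPM added), by GC group (1 lowest, 4 highest), with 1 line per library (grey cells, red exosomes; solid WT, dashed labelled DKO). Exosome lines climb from −1.71 to −0.74 in group 1 to between −0.03 and 0.41 in group 4, and among the cell libraries that of mouse 33 climbs most.

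The position of members in the genome went with these groups. On chromosome 17, 23 of 37 members were lower in WT exosomes and 1 higher (median −1.43), against 21.2% lower among other genes of that chromosome, and in libraries labelled DKO 26 were lower and 3 higher. On chromosome 13, 14 of 28 were lower and 1 higher in WT (22.6% lower among other genes), and 17 and 0 in libraries labelled DKO. On chromosome 7, which holds the most members, only 9 of 76 were lower and 5 higher in WT (17.4% lower among other genes). On chromosome 15, 0 of 8 were lower and 2 higher, beside 18.0% lower and 21.8% higher among its other genes.

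Members at most 1 Mb apart formed 16 clusters of 5 or more. The largest, at chr17:21008941-23564226, held 21 members, 20 of them with the KRAB-like pattern, and 16 were lower in WT and 15 in libraries labelled DKO. Of the other genes above the floor in that span, 2 of 2 were lower in each genotype (median −2.02 in WT, against −1.52 for members). At chr13:67038594-67827000 all 17 members were KRAB genes, and 10 and 12 were lower. There, 3 of 6 other genes were lower in each genotype (median −1.56 in WT, against −1.23 for members). Both clusters had a low median transcript GC content, 38.2% and 39.1%. By contrast, the 6 members at chr7:4915181-5053723, among them Zfp524, Zfp865 and Zfp580, had no KRAB-like pattern and a median GC content of 61.6%, and 0 were lower and 1 higher in WT. The 10 members at chr7:127233061-127885996, with Zfp771 and Zfp646, had 0 lower in each genotype and 1 and 3 higher. Of 18 other genes in that span, 4 were lower and 6 higher in WT, and 4 and 5 in libraries labelled DKO. The zeros for members are from edgeR. Genes of a cluster share descent and can share reads, which was not measured, so they are not counted as independent observations.

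**Figure D5:**
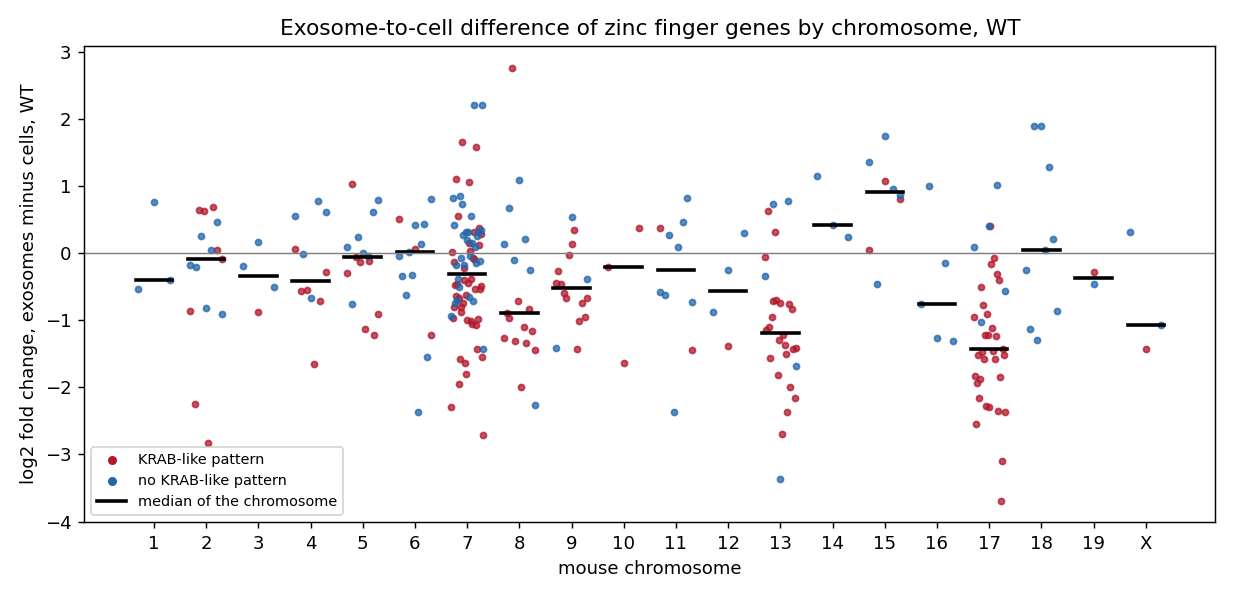
Log2 fold change, exosomes minus cells, in WT for each zinc finger gene (1 point each, spread sideways only to separate them), by mouse chromosome, with the median of each chromosome as a bar; red points have the KRAB-like pattern. Chromosomes 17 and 13 have medians of −1.43 and −1.18 and chromosome 15 one of 0.91.

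Chromosome 9, which carries Sidt2, has 16 members. In WT 2 fell in exosomes, Zfp426 (−0.67 ± 0.17, edgeR adjusted p = 0.0194) and Zfp810 (−0.74 ± 0.25, edgeR adjusted p = 0.0473), and in libraries labelled DKO 6 of 15 fell. Among other genes of the chromosome 24.4% and 25.7% were lower. The 6 members that fell in libraries labelled DKO were Zfp26 (−0.77 ± 0.17), Zfp266 (−0.76 ± 0.18), Zfp809, Zfp810 (−1.12 ± 0.23), Zfp846 (−1.11 ± 0.40) and Zfp949 (−1.29 ± 0.31), with edgeR adjusted p from 0.0021 to 0.0375. Both WT calls were lost without the cells of mouse 42 or of mouse 46, and the call of Zfp846 without any 1 cell library labelled DKO or the exosomes of mouse 151. None of the 16 was called between genotypes in edgeR, and Zfp949 was nearest in cells, with 13.9, 14.4 and 12.3 CPM in WT against 18.5, 17.4 and 16.5 CPM where labelled DKO (0.38 ± 0.14, edgeR adjusted p = 0.399).

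Between genotypes no zinc finger gene was called. In cells, edgeR called 0 of 288 members, beside 0.404% of all genes tested, and DESeq2 also called 0. At an unadjusted edgeR p under 0.05 were 19 members, beside 1415 of all 13106 genes tested. In exosomes edgeR called 0 of 276, beside 0.0332% of all genes, with 13 at an unadjusted p under 0.05, beside 1004 of 12064 genes. The interaction of compartment and genotype gave 0 of 288 in edgeR and in DESeq2, beside 0% of all genes. At an unadjusted edgeR p under 0.05 were 10 members, beside 776 of 12970 genes. In all 3 comparisons the members' share at that level was below that of all genes. Levels labelled DKO lay above all WT levels for 27 members in cells (background 8.24%) and below them for 18 (background 9.04%). In exosomes, 26 of 276 members lay above (background 8.07%) and 8 below (background 6.66%).

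The members with the smallest p in exosomes were Zfp52 and Zfp946, neighbours in the large chromosome 17 cluster, picked after their values were seen. Zfp52 was at 9.62, 10.3 and 13.9 CPM in WT exosomes and 20.0, 21.8 and 21.0 CPM in exosomes labelled DKO, without overlap (0.88 ± 0.23, edgeR adjusted p = 0.552). Zfp946 was at 3.06, 5.07 and 4.53 against 10.7, 9.10 and 9.05 CPM, also without overlap (1.16 ± 0.32, edgeR adjusted p = 0.552). In cells Zfp52 was likewise higher where labelled DKO, at 39.6, 48.8 and 37.5 against 53.3, 50.4 and 56.2 CPM, and not called (0.36 ± 0.13, edgeR adjusted p = 0.390). Without the WT exosomes of mouse 46 a single member of 284 was called (0.352%), Zfp568 at −1.47 ± 0.25 (edgeR adjusted p = 0.0329). Its levels were 85.7 and 58.6 CPM in the remaining WT exosomes and 32.5, 23.7 and 20.8 CPM in those labelled DKO. Over all genes that fit called 1.04% lower and 0.104% higher, so members were called no more often than other genes.

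The genotype fold changes in cells also followed GC content, with a Spearman correlation of −0.55 across 285 members and −0.45 across all genes above the floor. Without the cells of mouse 33 these were −0.22 and −0.12, and with the male WT mouse as the only WT library −0.33 and −0.15. Without the cells of mouse 153 they were −0.41 and −0.31, so the relation was smaller without either of these 2 libraries.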

How the data were processed

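The deposited values are raw counts of reads per gene in 27179 genes and 12 libraries, made by the authors with featureCounts on mm10, per the submitters' processing notes; aligner, versions, annotation and strand: not given in the sources used here. Overlapping genes and near-copies cannot be separated. The per-library files held the same counts as the deposited series table in all 12 cases. Totals ranged from 7215083 to 32273898 counts, and intervals from counts cover counting error only. Symbols were matched to 25275 gene IDs. The members and gene lists were chosen with earlier results of these data known. The groups were compared with edgeR 4.0.16 (limma 3.58.1, R 4.3.3): filterByExpr, TMM, robust quasi-likelihood fit and test, Benjamini-Hochberg adjustment over all genes tested, at 0.05, each comparison fitted on its own 6 libraries and the interaction on all 12. DESeq2 1.42.0 was an alternative, beside other scalings, filters, the mouse as block, sex as covariate and each library left out. The code was tested on simulated data. Mean levels are TMM-scaled CPM.

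Genes were named by rule: the 8 members highest in cells per kilobase, up to 6 called members per direction and comparison with the largest fold change among those above a mean log2 CPM of 1 and without overlap, members on 4 role lists, the genes nearest the floor, members on chromosome 9, and up to 4 co-repressor or HUSH genes per comparison by p. One gene that this rule names is not reported here. Any other gene named was picked after its values were seen. Fingers, KRAB-like pattern and GC content came from the longest coding transcript in GENCODE M21, translated here in place of the planned RefSeq proteins. Each cell and exosome pair came from its own mouse. Cells and exosomes of a mouse are paired by that number; deviations from the group means of paired libraries correlated at 0.006, 0.078, 0.102, 0.147, 0.116 and 0.114 for mice 33, 42, 46, 151, 152 and 153. No pair of libraries agreed within counting noise.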

Additional observations from a re-analysis of the deposited data

How the results depend on the processing

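The exosome-to-cell medians of members stayed below 0 in both genotypes under each setting tried, while WT counts of calls moved most. In WT, total-count scaling gave 120 members lower and 4 higher, beside 32.2% and 8.68% of all genes. Leaving all genes unfiltered gave 10 higher in WT, beside 9.65% of all genes. Leaving out 1 library at a time gave 25 to 92 lower and 3 to 31 higher in WT, and 62 to 91 lower and 20 to 37 higher in libraries labelled DKO, where the fit on all 12 libraries gave 17 higher. The 25 lower in WT were 8.71% of members, beside 10.7% of all genes without the cells of mouse 42 and 9.88% without those of mouse 46. With the mouse as a replicate block, the WT counts were 57 lower and 10 higher. Between genotypes in exosomes, leaving out 1 library gave 0 to 1 member lower, the 1 without mouse 46, where 1.04% of all genes were lower. The members' median log2 difference between genotypes changed sign with total-count scaling in cells (−0.0426) and, in exosomes, when 1 library was left out (range −0.0022 without mouse 153 to 0.1699 without mouse 152). In exosomes it also moved from 0.07 to 0.24 with sex as a covariate, 0.25 with males only and 0.23 with total-count scaling. The cause was not tested. Calls of single members near 0 counts are limited by depth, chiefly in the exosomes of mouse 33, where 42 members had 3 counts or fewer.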
